A study of Mus musculus with 16 samples.

Results

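The chaperone and co-chaperone genes are the platform's genes of the HSP70 (Hspa), small heat shock (Hspb), HSP60 and HSP10 (Hspd, Hspe), HSP90, HSP110 (Hsph), J-domain (Dnaja, Dnajb, Dnajc), FKBP, BAG and CCT families, together with Tcp1 and St13. They were chosen by symbol alone, with no measured value, and numbered 76 of 9026 named genes, carried by 124 probes. RNA from brain and from liver of 4 male HdhQ111/+ mice was measured at 18 weeks of age. These C57BL/6J mice carry 1 copy of HdhQ111, a knock-in allele of the huntingtin gene whose CAG repeat is expanded. The comparison RNA was a wildtype pool of the same tissue, made from 4 male C57BL/6J mice of equal age, and both RNAs were read on 2-colour cDNA arrays. A dye-swapped pair of arrays was made for each tissue of a mouse, which came to 16 arrays, 8 for each tissue, and brain and liver came from the same 4 HdhQ111/+ animals. The wildtype pool counts as 1 control sample, and the tests therefore leave out the spread among wildtype mice.

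Chaperones bind unfolded or partly folded proteins and help them reach or regain their native shape. HSP70 proteins work in an ATP-driven cycle in which J-domain proteins (the DNAJ families) deliver clients and start ATP hydrolysis, and nucleotide exchange factors such as the HSP110 and BAG proteins release them. HSP90 and its FKBP cofactors take over later steps for many signalling proteins, HSP60 with its lid HSP10 forms a folding chamber in mitochondria, and the ring-shaped CCT complex folds actin, tubulin and other cytosolic proteins. Many of these genes are targets of the heat shock factor HSF1, and those of the endoplasmic reticulum (ER) are targets of the unfolded protein response. Chaperones are studied in Huntington's disease because the expanded glutamine stretch of huntingtin misfolds and aggregates, and HSP70, J-domain and CCT proteins slow that aggregation in model systems.

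The promoters of 6 members are shown because results on these genes follow and because they carry the letters that HSF1 and the ER stress response are known to read. Of the 76 genes, 65 had a window of 250 bases before to 50 after their start in RefSeq's annotation of GRCm38.p6, in 84 windows. Each stretch is the 150 bases before the start, 5′ to 3′ on the gene's own strand. Capitals mark the heat shock pair, GAANNTTC or TTCNNGAA, in the first 3 stretches and the ER stress element, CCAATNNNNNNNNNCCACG on either strand, in the last 3. They lie at chr1:55087998-55088147 on the plus strand (Hspe1), chr5:149636316-149636465 on the minus strand (Hsph1), chr15:31601847-31601996 on the minus strand (Cct5), chr2:34771940-34772089 on the plus strand (Hspa5), chr10:86705445-86705594 on the minus strand (Hsp90b1) and chr14:118937782-118937931 on the plus strand (Dnajc3).
Hspe1: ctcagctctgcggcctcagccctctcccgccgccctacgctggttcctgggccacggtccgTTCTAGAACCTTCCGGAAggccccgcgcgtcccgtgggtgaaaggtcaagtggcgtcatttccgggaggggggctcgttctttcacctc
Hsph1: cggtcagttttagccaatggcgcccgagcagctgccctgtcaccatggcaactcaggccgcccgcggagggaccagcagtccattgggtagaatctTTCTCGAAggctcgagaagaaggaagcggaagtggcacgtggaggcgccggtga
Cct5: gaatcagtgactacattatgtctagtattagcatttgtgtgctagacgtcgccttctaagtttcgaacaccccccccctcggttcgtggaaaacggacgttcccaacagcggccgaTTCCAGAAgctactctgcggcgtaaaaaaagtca
Hspa5: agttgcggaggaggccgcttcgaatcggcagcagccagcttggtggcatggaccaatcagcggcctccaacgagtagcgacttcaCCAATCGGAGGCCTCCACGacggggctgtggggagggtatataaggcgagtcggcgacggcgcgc
Hsp90b1: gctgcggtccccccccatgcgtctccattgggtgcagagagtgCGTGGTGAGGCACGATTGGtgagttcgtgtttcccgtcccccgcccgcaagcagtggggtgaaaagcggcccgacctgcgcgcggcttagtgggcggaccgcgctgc
Dnajc3: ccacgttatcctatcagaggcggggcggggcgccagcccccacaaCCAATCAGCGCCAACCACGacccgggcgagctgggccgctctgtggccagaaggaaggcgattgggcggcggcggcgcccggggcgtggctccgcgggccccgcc

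In the Hspe1 promoter, 3 pairs overlap into a run that starts 89 bases before the gene. Hspe1 and Hspd1 are neighbours on chromosome 1 that are read in opposite directions. One Hspd1 start lies 216 bases from the Hspe1 start, and its window shares 285 bases with that of Hspe1, so both genes hold the same run. The heat shock pair, searched on both strands, was present in 21 of 65 member genes (32.3%), against 17% of the 27025 genes with a window. The longer triple, GAANNTTCNNGAA or TTCNNGAANNTTC, contains 2 overlapping pairs. It was present in Dnajb6, Hspd1, Hspe1 and Hsph1, 4 of 65 members (6.15%) against 0.662% of all genes. The Hsph1 triple lies after the start and outside the stretch shown. The ER stress element was present in Hspa5, Hsp90b1 and Dnajc3, 3 of 65 members (4.62%) against 0.137% of all genes. These matches describe letters in a window and not binding.

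Values are log2 ratios, likely HdhQ111/+ over wildtype, averaged over the probes of a gene and the 2 arrays of a mouse. A value of 0 is no difference from the pool. The direction rests on the order of the channels in the labels and on the design text, and base 2 was assumed. The deposited ratios carry no spot intensities, so neither the level of a gene nor its height above background is known, and the tissue markers give ratios only. In these bulk tissues, fewer cells of a type and less RNA per cell cannot be told apart. Arrays held 19530 to 20584 values each, and mouse 1 had the widest liver arrays, with interquartile ranges of 0.863 and 1.27. Pituitary hormone genes were far below 0 in brain (list median -2.75 over 5 genes). All 7 measured hepatocyte marker genes were below 0 in liver (against 56.6% of all genes), with a median of -0.19. Of these, 3 were below 0 in every mouse (against 14.1% of all genes). The part of these shifts in the chaperone values was not tested.

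Gene names rest on an offset that no source states, in which the symbol of probe number n names the value row 11 rows further on. Under the offset of 11, the rows named as chaperones had a median spread over mice of 0.193 in liver, the lowest of 121 offsets tried (0.209 at the next), and 0.266 in brain, the 4th lowest (0.257 at the lowest). Without an offset the spread was 0.230 in liver and 0.285 in brain. The liver rows thus had their lowest spread at the offset used, and the brain rows did not.

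**Figure D1:**
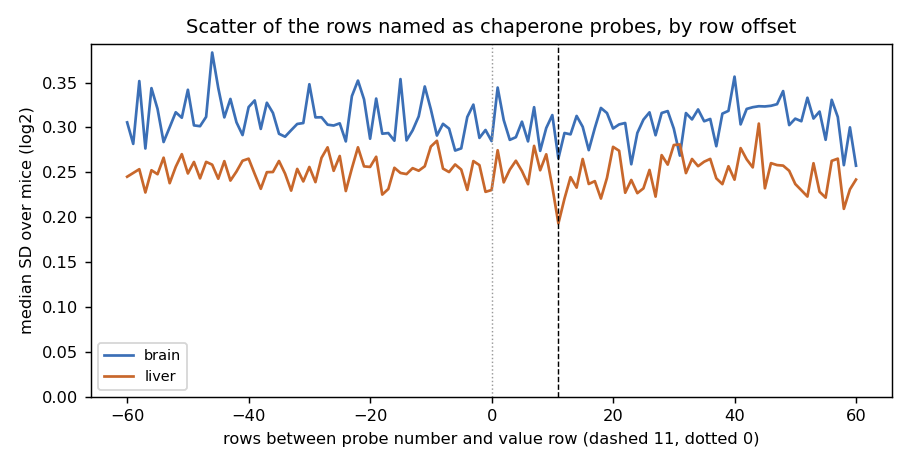
Median SD over the 4 mice (log2, vertical axis) of the value rows named as chaperone probes, for each number of rows between probe and value from -60 to 60 (horizontal axis), in brain (blue) and liver (orange). The liver line has its lowest point, 0.193, at 11 rows (dashed), and at 0 rows (dotted) it is at 0.230.

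No chaperone or co-chaperone gene passed the test in either tissue. By limma with Benjamini-Hochberg adjustment over all genes, 0 of 73 members tested in brain had an adjusted p under 0.05, where 3 of 8567 genes did (0.0350%). In liver the counts were 0 of 75 members and 0 of 8803 genes (0%). For liver minus brain they were 0 of 73 members and 2 of 8483 genes (0.0236%). The smallest adjusted limma p of a member was 0.999 in brain, 0.575 in liver and 0.677 for liver minus brain. At an unadjusted limma p under 0.05 there were 4 members in brain (5.48%, against 3.92% of all genes), 9 in liver (12%, against 8.24%) and 5 for liver minus brain (6.85%, against 7.21%). Dnajc15 was measured in 1 mouse per tissue and not tested, and Dnajc17 and Hspb3 were not tested in brain.

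Chaperone genes lay on both sides of 0 in brain and more often below 0 in liver, as did genes in general. The mean was below 0 for 35 of 73 members in brain (47.9%, against 43.3% of all genes), for 47 of 75 in liver (62.7%, against 56.6%) and for 44 of 73 in liver minus brain (60.3%, against 57.4%). Leaving out a mouse moved the brain count most: without mouse 1, 23 of 73 members were below 0 (31.5%, against 37.2% of all genes), and without mouse 3, 42 were (57.5%, against 54.6%). In liver the count stayed at 46 to 49 of 75. All 4 livers, or all with a value from both arrays, were below 0 for 16 members (21.3%, against 14.1%) and above 0 for 5 (6.67%, against 7.20%). In brain, every mouse was above 0 for 8 members (11%, against 6.60%) and below 0 for 5 (6.85%, against 4.66%). The median over all members was -0.16, 0.02, 0.16 and 0.05 in the brains of mice 1 to 4, and -0.17, -0.08, -0.07 and -0.02 in their livers. Over all genes the same medians were -0.10, 0.01, 0.15 and 0.04 in brain and -0.07, -0.04, -0.02 and -0.004 in liver. The mice thus ran in the same order for members and for all genes, with mouse 1 lowest in both tissues and mouse 3 highest in brain. The mean of the members' medians was 0.02 ± 0.13 in brain and -0.08 ± 0.06 in liver (SD, n = 4 mice), and that of all genes was 0.02 ± 0.10 and -0.04 ± 0.03.

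**Figure D2:**
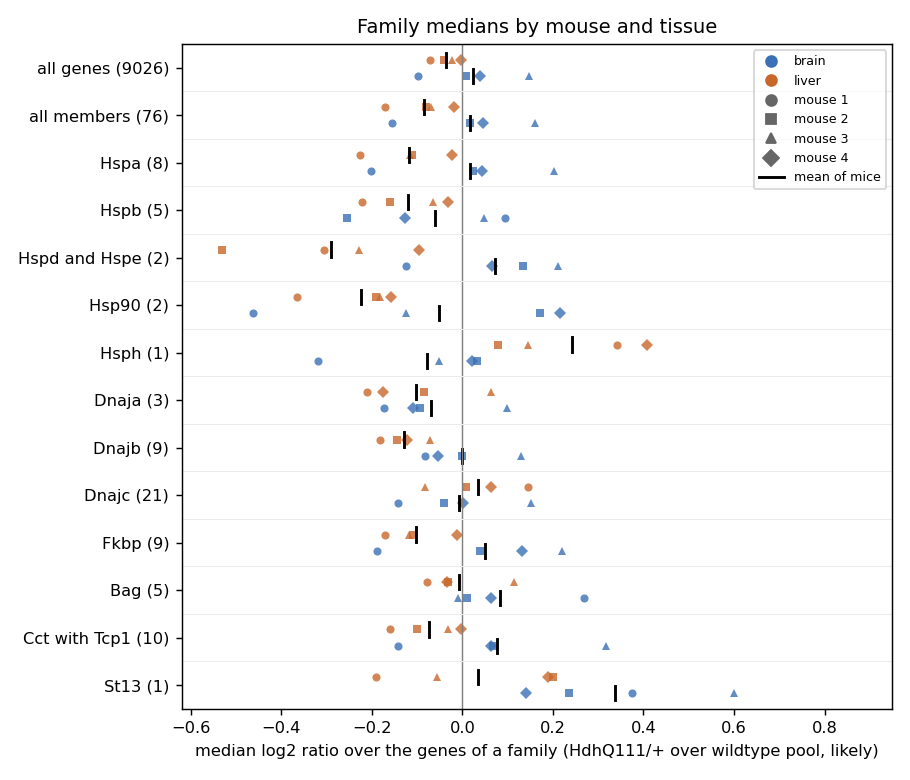
Median log2 ratio over the genes of each family (horizontal axis) in brain (blue) and liver (orange) for each mouse (marker shape), with the mean of the 4 mice as a bar; the number of genes stands in brackets. The liver medians of all genes, of all members and of the Hspa, Hspb, Hspd with Hspe, Hsp90, Dnajb, Fkbp and Cct families lie below 0 in every mouse.

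The dye mattered at single genes. In liver, the mean of the arrays with HdhQ111/+ RNA in Cy5 and that of the arrays with it in Cy3 had opposite signs for 43 of 76 members (56.6%) and for 63.9% of all genes. In brain the shares were 56 of 76 members (73.7%) and 66.3% of all genes. Averaging the swapped arrays removes a dye effect that is equal in both orientations. Values by orientation are given for part of the genes below, and a gene printed without them may still differ in sign between orientations. Counts of means below 0 within a family are to be set against 43.3% of all genes in brain and 56.6% in liver.

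The HSP70 genes themselves had a family median of 0.02 ± 0.17 in brain and -0.12 ± 0.08 in liver (SD, n = 4 mice), with 7 of 8 means below 0 in liver and 5 of 8 in brain. Hspa5 encodes BiP, the HSP70 of the ER. Its liver values in mice 1 to 4 were -0.61, -0.27, -0.43 and 0.08 (mean -0.31 ± 0.29), and its brain values were -0.34, 0.03, 0.27 and -0.18. Mouse 4 was thus the single liver above 0. Hspa9, the mitochondrial HSP70 mortalin, was read by 4 probes. It stood at -0.23, -0.37, -0.15 and 0.04 in liver and -0.16, 0.18, 0.36 and 0.17 in brain, and all 4 of its probes had a liver mean below 0. By orientation its liver mean was 0.11 with Cy5 and -0.46 with Cy3, and its brain mean 0.31 and -0.04, so the sign depended on the dye in both tissues. In this gene mice 2, 3 and 4 were above 0 in brain, and mouse 4 was again the exception in liver.

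Hspa1a, the stress-inducible HSP70, had 3 usable livers at -0.39, -0.47 and -0.15 in mice 2, 3 and 4, and brains at -0.25, 1.54, 0.27 and 0.18. One brain, mouse 2, carried its brain mean of 0.43. In liver, mouse 1 had a Cy5 value alone, and the liver mean of Hspa1a turned above 0 when values from 1 array were allowed. On the Cy5 arrays 3 of 4 livers were below 0 (mean -0.05), and on the Cy3 arrays 3 of 3 (mean -0.26). Its neighbour Hspa1b was at -0.10, 0.14, 0.10 and -0.27 in liver and at -0.52, -0.06, 0.49 and 0.05 in brain. The probes of these near-identical genes may read each other's RNA, so the split between them is uncertain. Hspa4, an HSP110-type exchange factor, had means of -0.11 in brain and -0.05 in liver, with its 3 probes on both sides of 0 in each tissue. The means of Hspa1l, a relative of Hspa1a known for its testis expression, were -0.22 in brain and 0.08 in liver, with opposite signs in the 2 orientations in both tissues. Those of Hspa14, a ribosome-associated HSP70, were -0.08 and -0.01. Hspa12b, a distant HSP70 relative of endothelial cells, was above 0 in all 4 brains at 0.05, 1.61, 0.10 and 0.43, with mouse 2 far above the others, as for Hspa1a.

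Among the partners of HSP70 that release or hold its clients, Hsph1 encodes HSP110, an exchange factor and disaggregase subunit. Its liver values were 0.34, 0.08, 0.15 and 0.41 (mean 0.24 ± 0.16) and its brain values -0.32, 0.03, -0.05 and 0.02. All 4 livers were above all 4 brains, the single member of which this held (1.37% of members, against 1.69% of all genes). Liver minus brain was 0.32 with a standard error of 0.15 (limma, adjusted p = 0.677). The 2 orientations disagreed, however. The mean liver ratio of Hsph1 was -0.47 on the Cy5 arrays, with 4 of 4 below 0, and 0.96 on the Cy3 arrays, with 0 of 4 below 0. St13 encodes Hip, which holds HSP70 in its ADP state. It was at 0.38, 0.24, 0.60 and 0.14 in brain (mean 0.34 ± 0.20, limma, adjusted p = 0.999) and at -0.19, 0.20, -0.06 and 0.19 in liver. Every brain was above 0, and the brain means of its 3 probes were 0.02, 0.48 and 0.51.

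HSP60 and HSP10 work as a pair, and their genes had similar values mouse by mouse. Hspd1, which encodes HSP60, was at -0.32, -0.54, -0.21 and -0.07 in liver and at -0.01, 0.06, 0.17 and 0.08 in brain. Hspe1, which encodes HSP10, was at -0.29, -0.53, -0.24 and -0.13 in liver and at -0.24, 0.21, 0.25 and 0.05 in brain. Both genes were below 0 in every liver, with mouse 2 lowest and mouse 4 nearest 0, and the 2 Hspd1 probes had liver means of -0.26 and -0.31. Every liver was below every brain for Hspd1, while for Hspe1 the brain of mouse 1 overlapped the livers. The means in liver were -0.28 ± 0.20 for Hspd1 and -0.30 ± 0.17 for Hspe1 (limma, adjusted p = 0.575 for both). Liver minus brain was -0.36 for Hspd1 with a standard error of 0.15 and -0.37 for Hspe1 with a standard error of 0.16 (limma, adjusted p = 0.677 for both).

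The dye also separated the arrays of this pair. The pair's median in liver was -0.003 ± 0.25 on the Cy5 arrays and -0.58 ± 0.37 on the Cy3 arrays, and in brain it was 0.30 ± 0.19 and -0.16 ± 0.12 (SD, n = 4 mice). The liver median was below the brain median in both orientations. Hspd1 itself was at 0.07 in liver with Cy5 and -0.63 with Cy3, and Hspe1 at -0.07 and -0.52. Hspd1 and Hspe1 share the promoter run of heat shock pairs printed above. Of the other genes with a pair in their window, Hsph1, Dnaja4, Dnajc27, Dnajc5g and Cct8l1 had a liver mean above 0. They were at 0.24, 0.17, 0.27, 0.06 and 0.10, but at -0.47, -0.70, -0.05, -0.40 and -0.48 on the Cy5 arrays. The rest had a liver mean below 0, among them Hspb1 at -0.21 and Cct5 at -0.34. Of the rest, Cct2, Cct6a, Dnajc10 and Hspb8 were above 0 on the Cy5 arrays and Dnajb6 on the Cy3 arrays. Over all genes 56.6% of liver means were below 0. A link between the pair and these values was not tested.

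The HSP90 genes measured were Hsp90aa1, the stress-inducible cytosolic form, and Hsp90b1, which encodes GRP94, the HSP90 of the ER. Hsp90b1 was below 0 in all livers, at -0.49, -0.15, -0.12 and -0.36 (mean -0.28 ± 0.18, limma, adjusted p = 0.575), and on both sides of 0 in brain, at -0.35, 0.48, -0.02 and 0.30. Its liver mean was below 0 in both orientations, at -0.11 with Cy5 and -0.45 with Cy3. Hsp90aa1 was at -0.24, -0.23, -0.24 and 0.04 in liver and at -0.58, -0.14, -0.23 and 0.13 in brain. Mouse 4 was thus above 0 in both of its tissues for Hsp90aa1 and the other mice below.

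The brain values of the CCT genes depended on the dye orientation. On the Cy5 arrays 1 of 10 brain means was below 0 and on the Cy3 arrays 9 of 10 were, and all 10 genes had opposite signs in the 2 orientations. The brain family median was 0.23 ± 0.29 with Cy5 and -0.08 ± 0.15 with Cy3 (SD, n = 4 mice). Averaged over the orientations, 9 of 10 brain means were above 0, with a family median of -0.14, 0.07, 0.32 and 0.06 in mice 1 to 4 that followed the medians of all genes. In liver 6 of 10 means were below 0 (against 56.6% of all genes), with a family median of -0.07 ± 0.07 (SD, n = 4 mice). In each orientation 7 of 10 were below 0, but not the same genes, since 6 of 10 had opposite signs in the 2 orientations. The ring holds its subunits in equal number. Cct5 was at -0.46, -0.29, -0.44 and -0.18 in liver (mean -0.34 ± 0.13, limma, adjusted p = 0.575) and at -0.08, 0.07, 0.51 and -0.24 in brain. All 4 livers were below 0, with means of -0.11 on the Cy5 arrays and -0.57 on the Cy3 arrays. Cct7 was also below 0 in every liver, at -0.23, -0.18, -0.01 and -0.26.

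Tcp1, the first subunit of the ring, was read by 3 probes with liver means of -0.11, -0.17 and -0.23, and its livers stood at -0.29, -0.30, -0.12 and 0.03. The liver means of Cct2 and Cct3 were -0.17 and -0.14. Those of Cct4 and Cct8 were above 0, at 0.09 and 0.15, and that of Cct6a was -0.02. Of these 5 genes Cct3 alone had the same sign in both orientations. The liver mean of Cct2 was 0.02 with Cy5 and -0.36 with Cy3, that of Cct4 -0.23 and 0.41, and that of Cct8 -0.05 and 0.36. Means of genes of the same complex thus ran from -0.34 to 0.15 in liver. Cct6b, a testis form of a subunit, was above 0 in every brain, at 0.05, 0.06, 0.22 and 0.11, with brain means of 0.13 on the Cy5 arrays and -0.04 on the Cy3 arrays. The last gene, Cct8l1, is a CCT8-like gene and had the widest brain values of the family, at 1.23, -0.20, -0.83 and -1.36.

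**Figure D3:**
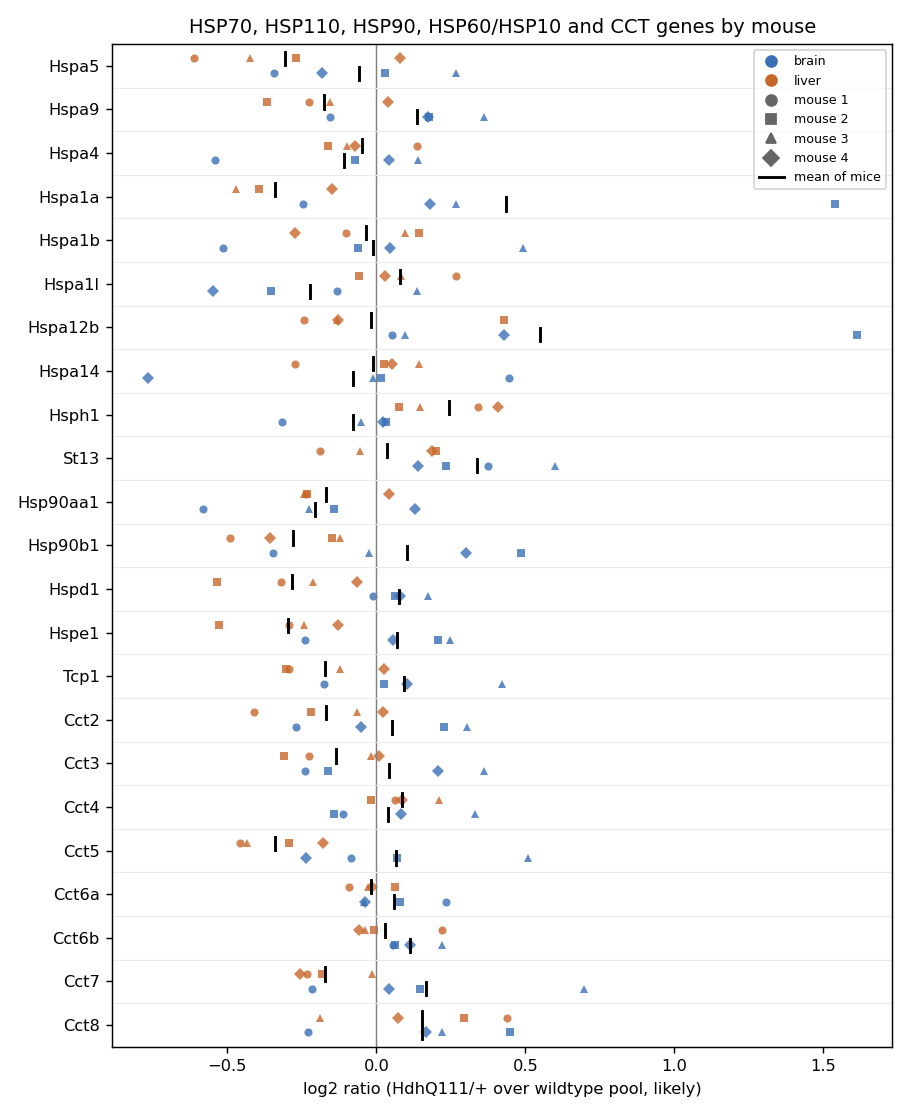
Log2 ratios (horizontal axis) of the HSP70, HSP110, HSP90, HSP60/HSP10 and CCT genes and St13 in brain (blue) and liver (orange) of each mouse (marker shape), with the mean of the mice as a bar; Cct8l1 is not drawn. Hspd1, Hspe1, Hsp90b1, Cct5 and Cct7 have every liver below 0, Hsph1 has every liver above 0, and mouse 2 lies at 1.54 and 1.61 in brain for Hspa1a and Hspa12b.

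J-domain proteins select the clients of HSP70 and fall into the classes Dnaja (3 genes), Dnajb (9 genes) and Dnajc (21 genes). Of the Dnajb genes, 8 of 9 had a liver mean below 0, and the family median was -0.18, -0.14, -0.07 and -0.12 in the livers of mice 1 to 4 and -0.08, -0.001, 0.13 and -0.05 in their brains. Every mouse had the lower value in liver. The family's liver median was -0.23 ± 0.20 on the Cy5 arrays and 0.08 ± 0.16 on the Cy3 arrays (SD, n = 4 mice), so its sign depended on the dye orientation. Dnajb2, a J-domain protein enriched in neurons that binds ubiquitinated clients, was the member with the smallest unadjusted limma p for liver minus brain. Its brains were at 0.66, 0.26, 0.21 and 0.09 and its livers at -0.18, -0.32, -0.07 and -0.15. All brains were above 0 and all livers below. Liver minus brain was -0.48 with a standard error of 0.16 (limma, adjusted p = 0.677). The tissue means kept their signs in both orientations, at 0.19 and 0.42 in brain and -0.10 and -0.12 in liver for Cy5 and Cy3. Within each orientation, however, 2 of 4 brains and 2 of 4 livers were below 0. In mouse 1 the 2 probes of Dnajb2 had opposite signs, at 1.68 and -0.36 in brain and -0.47 and 0.12 in liver.

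The other Dnajb genes varied more between mice or orientations. Dnajb8, a testis-enriched suppressor of polyglutamine aggregation in cell models, was at 0.28, 0.14, 0.22 and 0.06 in brain and at -0.09, 0.01, -0.28 and -0.01 in liver. Its groups did not overlap, although its brain mean was -0.29 on the Cy5 arrays and 0.40 on the Cy3 arrays. For Dnajb6, a suppressor of the same kind, 5 probes gave means of -0.16 ± 0.14 in brain and -0.18 ± 0.13 in liver, and all 5 of its liver probe means were below 0. The liver mean of Dnajb6 was -0.44 with Cy5 and 0.10 with Cy3, so its sign depended on the orientation, while its brain mean was below 0 in both. Dnajb1, the main cytosolic partner of inducible HSP70, was below 0 in every brain, at -0.18, -0.28, -0.06 and -0.10, and on both sides in liver. Dnajb3 was below 0 in every brain too, with a mean of -0.25, but the brain mean was -0.64 on the Cy5 arrays and 0.15 on the Cy3 arrays. Dnajb11, an ER partner of BiP, had livers at -0.21, -0.11, -0.20 and -1.86, and the mean of -0.59 rests on mouse 4. Its liver mean was 0.19 with Cy5 and -1.38 with Cy3.

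Of the Dnaja genes, Dnaja1 was below 0 in every liver, at -0.52, -0.09, -0.08 and -0.13, with mouse 1 apart from the rest. The means of Dnaja3, a mitochondrial J-domain protein, were -0.08 in brain and -0.14 in liver. For Dnaja4, a cytosolic relative of Dnaja1, they were -0.07 and 0.17, and the liver mean was -0.70 with Cy5 and 1.05 with Cy3.

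The Dnajc class is the most mixed in domain structure and was also mixed in sign, with 9 of 20 liver means and 11 of 19 brain means below 0. Dnajc19 encodes a J-domain protein of the mitochondrial import motor. It was at -0.24, -0.40, -0.21 and -0.25 in liver (mean -0.27 ± 0.08, limma, adjusted p = 0.575) and at -0.09, -0.01, 0.35 and -0.11 in brain. Every liver was below every brain, and its 2 probes had liver means of -0.28 and -0.26. The liver mean was -0.05 on the Cy5 arrays and -0.49 on the Cy3 arrays. Dnajc14, a J-domain protein of the ER membrane, ran the other way, at 0.56, 0.29, 0.003 and 0.47 in liver, with brains at -0.99, 0.09 and -0.19 in mice 1, 3 and 4. Its liver minus brain was 0.69 with a standard error of 0.27 (limma, adjusted p = 0.677). That difference turned with the orientation, at -0.61 on the Cy5 arrays and 1.64 on the Cy3 arrays. The brain mean was 0.75 with Cy5 and -1.11 with Cy3, and the liver mean 0.13 and 0.53.

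Dnajc5b, a relative of the cysteine string protein of synaptic vesicles, was above 0 in every brain and every liver. Its values were 0.32, 1.02, 0.02 and 0.33 in brain and 0.71, 0.33, 0.38 and 0.07 in liver. The sign came from 1 orientation, since the means were -0.59 in brain and -0.09 in liver on the Cy5 arrays and 1.44 and 0.83 on the Cy3 arrays. The liver values of Dnajc27 and Dnajc6, the neuronal clathrin-uncoating auxilin, were all above 0, with means of 0.27 and 0.20. Both again had a liver mean below 0 on the Cy5 arrays, at -0.05 and -0.10. Dnajc4 was below 0 in every liver with a mean of -0.10, but on the Cy5 arrays 0 of 4 were below 0 (mean 0.15) and on the Cy3 arrays 4 of 4 were (mean -0.34). Dnajc3, an ER cochaperone that also restrains the kinase PERK, was at -0.66, 0.09, -0.22 and 0.06 in liver.

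Brain and liver of Dnajc28 could not be compared with any precision, since its livers ran from -2.58 to 1.63. Its 3 measured brains were at -1.06, -0.30 and -0.52. Dnajc7, a cytosolic protein that binds both HSP70 and HSP90, was above 0 in every brain with a mean of 0.15, which was 0.38 with Cy5 and -0.07 with Cy3. Dnajc9, a histone chaperone, was below 0 in every brain with a mean of -0.07. For Dnajc9 the brain mean was 0.19 on the Cy3 arrays, so its sign depended on the orientation.

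FKBP proteins are prolyl isomerases, some of which serve HSP90. Fkbp8, a protein of the outer mitochondrial membrane, was at -0.22, -0.30, -0.27 and -0.08 in liver and at -0.08, 0.03, 0.37 and 0.27 in brain. Every liver was below every brain, though the highest liver (-0.082) and the lowest brain (-0.076) nearly met. Liver minus brain was -0.36 with a standard error of 0.15 (limma, adjusted p = 0.677). By orientation the liver mean of Fkbp8 was 0.10 with Cy5 and -0.53 with Cy3, so its sign depended on the dye, and the brain mean was 0.61 and -0.32. Fkbp4, which encodes the HSP90 cofactor FKBP52, was at -0.61, -0.26, -0.23 and 0.14 in liver, and both of its probes had a liver mean below 0. Fkbp14, an ER isomerase, was below 0 in every liver with a mean of -0.20 ± 0.11. Fkbp11, a further ER isomerase, was below 0 in every brain, at -0.11, -1.14, -0.25 and -2.28, and the size of its mean of -0.95 came from mice 2 and 4. Fkbp1a, the binding protein of rapamycin, had means of 0.12 in brain and -0.06 in liver, each above 0 with Cy5 and below 0 with Cy3. The family median was 0.05 ± 0.18 in brain and -0.10 ± 0.07 in liver (SD, n = 4 mice), and the liver median was 0.02 on the Cy5 arrays and -0.24 on the Cy3 arrays.

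BAG proteins release clients from HSP70 and link it to degradation. Bag4, which also binds the death domains of cytokine receptors, was above 0 in every brain, at 0.37, 0.04, 0.39 and 0.16, but its probes differed in sign there, at 0.75 and -0.27. Bag3 steers HSP70 clients to autophagy together with Hspb8, and was at -0.39, -0.12, -0.38 and 0.06 in liver and at 0.37, -0.04, -0.34 and 0.42 in brain. Bag2, an inhibitor of the ubiquitin ligase CHIP, was below 0 in every liver, at -2.16, -0.07, -0.28 and -0.03, with mouse 1 far from the others. The brain and liver means were -0.09 and 0.02 for Bag1, an HSP70 exchange factor, and -0.01 and 0.15 for Bag6, a holdase for membrane proteins.

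Small heat shock proteins hold unfolded proteins without ATP. Hspb1, the broadly expressed HSP25, was below 0 in every liver, at -0.49, -0.16, -0.16 and -0.03, and at 0.12, 0.04, -0.04 and 0.15 in brain. Hspb8, the partner of Bag3, was below 0 in every liver as well, with a mean of -0.12 ± 0.11, but the liver mean was 0.20 on the Cy5 arrays and -0.45 on the Cy3 arrays, and its brain probes disagreed at 0.25 and -0.49. Hspb7, known from heart and skeletal muscle, was at 0.15, -0.48, -0.77 and -0.67 in brain, with 3 of 4 mice below 0 and both probes below 0. Its brain mean was -0.86 on the Cy5 arrays and 0.05 on the Cy3 arrays. Hspb2, a muscle form, had means of -0.18 in brain and 0.01 in liver, and Hspb3 had a liver mean of -0.23.

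**Figure D4:**
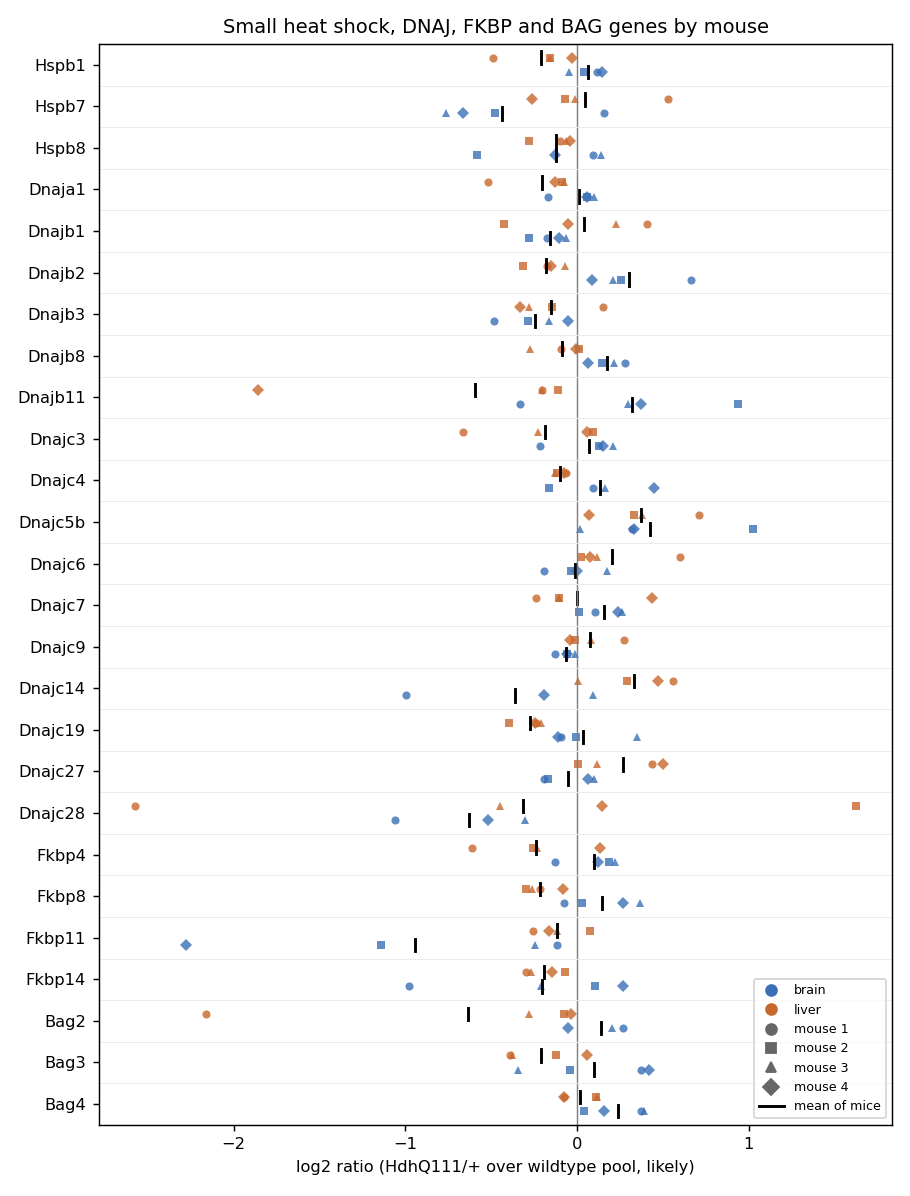
Log2 ratios (horizontal axis) of part of the small heat shock, DNAJ, FKBP and BAG genes named in the text in brain (blue) and liver (orange) of each mouse (marker shape), with the mean of the mice as a bar. Among those not drawn are Hspb2, Hspb3, Dnaja3, Dnaja4, Dnajb6, Fkbp1a, Bag1 and Bag6. Dnajb2 has every brain above 0 and every liver below, Dnajb11, Bag2 and Dnajc28 have single livers at -1.86, -2.16 and -2.58, and Fkbp11 has a brain at -2.28.

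In total, every liver was below every brain for 5 of 73 members, Hspd1, Dnajb2, Dnajb8, Dnajc19 and Fkbp8 (6.85%, against 3.65% of all genes). By orientation, liver minus brain was below 0 with both dyes for Hspd1, Dnajb2, Dnajc19 and Fkbp8, and for Dnajb8 it was 0.13 with Cy5 and -0.41 with Cy3. Sorting members by compartment, from general knowledge and after their values had been seen, gave 8 mitochondrial genes tested in liver, Hspa9, Hspd1, Hspe1, Dnaja3, Dnajc11, Dnajc19, Dnajc28 and Dnajc30. Dnajc15 was not tested, and Fkbp8 was not in the set. Of the 8, 6 had a mean below 0 (median -0.23, against 56.6% of all genes below 0) and 3 were below 0 in every mouse (against 14.1% of all genes). On the Cy5 arrays Hspd1, Hspa9, Dnajc11 and Dnajc30 were above 0 in liver. In brain, 3 of 8 were below 0, with a median of 0.05. Of 10 genes sorted to the ER lumen, 8 were below 0 in liver (median -0.15, against 56.6% of all genes below 0). Of these, 3 were below 0 in every mouse (against 14.1% of all genes). In brain, 6 of 10 were below 0 (median -0.03, against 43.3% of all genes below 0). The 10 were Hspa5, Hsp90b1, Dnajb11, Dnajc1, Dnajc3, Dnajc10, Fkbp2, Fkbp9, Fkbp11 and Fkbp14. On the Cy5 arrays Dnajb11, Dnajc1, Dnajc10, Fkbp9 and Fkbp11 were above 0 in liver, and on the Cy3 arrays Fkbp2 was. The median over all genes tested was -0.03 in liver and 0.02 in brain.

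The 3 genes with an ER stress element in their promoter had a liver mean below 0, where 56.6% of all genes did. The means were -0.31 for Hspa5, -0.28 for Hsp90b1 and -0.19 for Dnajc3, and mouse 1 was the lowest liver in each. On the Cy5 arrays they were -0.03, -0.11 and -0.16, and on the Cy3 arrays -0.59, -0.45 and -0.21. None of these genes passed the test, and a link to the element was not tested. In brain their means were -0.06, 0.10 and 0.07.

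Genes that work with the members, taken from lists, also gave no call: 0 of the genes of the 7 pathway lists had an adjusted limma p under 0.05 in either tissue. Of the ER lectin chaperones and oxidoreductases, 10 of 10 measured genes were below 0 in liver (against 56.6% of all genes; median -0.14, against -0.03 over all genes) and 4 of 10 in brain (median 0.03). Calr, the calcium-binding lectin calreticulin, was at -0.50, -0.40, -0.25 and 0.001 in liver, and Txndc5, a disulfide isomerase, at -0.57, -0.06, -0.25 and -0.24. These 2 had an unadjusted limma p under 0.05 (against 8.24% of all genes), and 4 of the 10 were below 0 in every liver (against 14.1%). Creld2, an ER stress gene, had a liver mean of -0.27, and P4hb and Pdia4, both disulfide isomerases, had -0.12 and -0.14. Among the cyclophilins, the ER form Ppib was below 0 in every liver, at -0.49, -0.06, -0.27 and -0.37. Of this list, 3 of 7 genes were below 0 in liver (against 56.6% of all genes).

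The list of cofactors of HSP70 and HSP90 outside the symbol rule holds genes of the cytosol, the ER and mitochondria. Of these, 5 of 19 were below 0 in brain (median 0.06, against 43.3% of all genes below 0) and 11 of 18 in liver (median -0.02, against 56.6%). Unc45b, a myosin chaperone that works with HSP90, had a brain mean of 0.41 and was above 0 in every mouse, the 1 gene of this list with an unadjusted limma p under 0.05 in brain. Ptges3, the HSP90 cofactor p23, was above 0 in every brain with a mean of 0.29. Ahsa1 and Sgta, an activator of HSP90 and a small cofactor of HSP70, were below 0 in every liver, with means of -0.21 and -0.34. Stip1, the HOP protein that links HSP70 to HSP90, had a liver mean of -0.25 with mouse 1 above 0. Prefoldin and the tubulin folding cofactors hand clients to CCT or take tubulin from it. They were below 0 in 2 of 8 cases in brain and 5 of 8 in liver (against 43.3% and 56.6% of all genes). All 5 mitochondrial proteases and disaggregases had a liver mean below 0 (against 56.6% of all genes), with a median of -0.06, but 0 of them in every mouse. Clpx had the lowest mean, -0.37, with livers at -0.71, -0.02, -0.88 and 0.13. Of the heat shock factors and their regulators, Hsbp1, which binds HSF1, was measured, with means of 0.06 in brain and -0.25 in liver. Both alpha crystallins, Cryaa and Cryab, were near 0, with means of -0.003 and -0.05 in brain and -0.06 for each in liver.

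**Figure D5:**
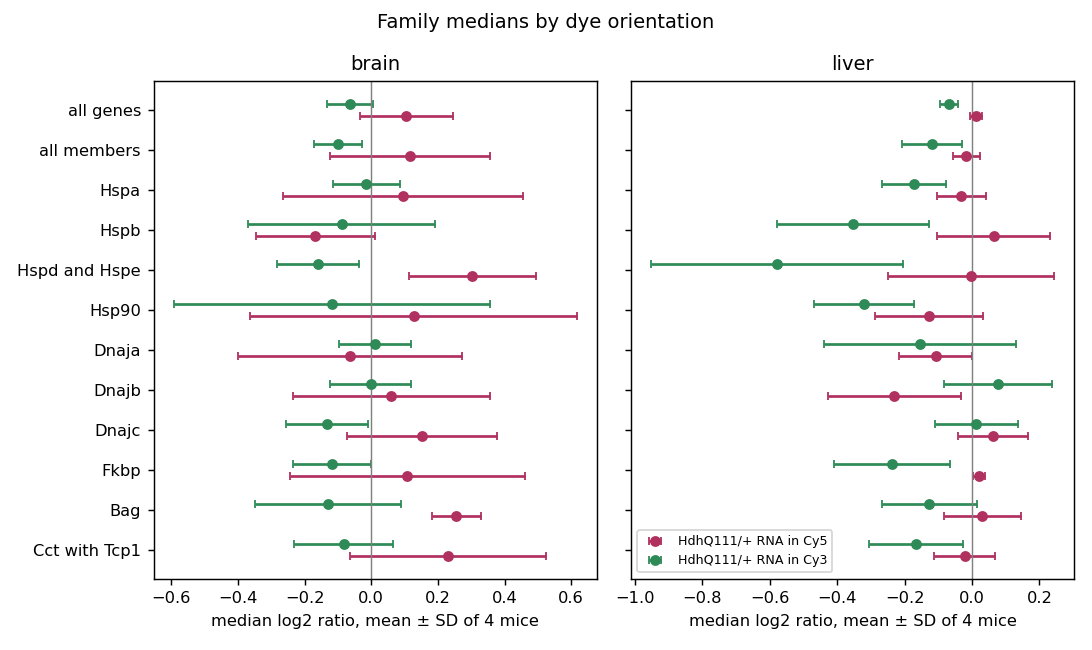
Family medians of the log2 ratio (horizontal axes) on arrays with HdhQ111/+ RNA in Cy5 and on those with it in Cy3, as mean ± SD of the 4 mice, in brain (left) and liver (right). In liver the median of Hspd and Hspe is -0.003 on the Cy5 arrays and -0.58 on the Cy3 arrays, Dnajb is on opposite sides of 0, and the medians of all genes are 0.01 and -0.07.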

How the data were processed

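The authors deposited normalized log ratios for 20794 probes on each of the 16 arrays, taken here as log2; base, centring and background correction are not given in the sources used here. Per the labels, each mouse and tissue had 2 dye-swapped arrays against the wildtype pool. The 1496 values over 10 in size were set to missing: on arrays with mutant RNA in Cy5 all 769 were positive, with it in Cy3 all 727 negative, so the arrays already run one way. The gap between swapped arrays, a probe's dye effect, was alike in the 2 tissues across 20476 rows (Spearman's rho 0.387), and the mean of a pair was not (-0.010). Of the probes, 12771 had 1 symbol in the platform annotation, and the symbol of probe n names row n + 11.

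Probes of a gene and the 2 arrays of a mouse were averaged, and a mouse value needs both arrays. Genes with at least 3 mice were tested against 0 with limma 3.58.1 in R 4.3.3, by Benjamini-Hochberg over all genes. Liver minus brain came from 1 fit of both tissues without the mouse. The standard errors and adjusted p printed for it are thus unpaired, with 1 spread per gene for both tissues. The number of arrays limits the precision. Mice pair the tissues, since both came from the same animals: a mouse's brain and liver deviations had a rank correlation of 0.058, -0.0015, 0.083 and 0.036 over 7435 genes. With mouse as a block, 2 genes and 0 members passed for liver minus brain. Named were all HSP70, HSP110, HSP90, HSP60/HSP10, CCT and St13 genes, and in other families those with an unadjusted p under 0.05 or the smallest p; a few further genes were named after their values were seen. Scripts were tested on simulated data. Members and lists were chosen with earlier results of these data known. Promoter windows came from RefSeq.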

Additional observations from a re-analysis of the deposited data

Results flagged for a closer look

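In 8 of 141 groups of 4 mice, 1 mouse stood apart from the other 3 by Dixon's criterion, which chance alone meets in about 1 of 20 groups. In brain this was mouse 1 for Dnaja1 (-0.17) and for Bag1 (-0.47). In liver it was mouse 1 for Dnaja1 (-0.52), Dnajc6 (0.60) and Bag2 (-2.16), mouse 2 for Hspa12b (0.43), and mouse 4 for Hsp90aa1 (0.042) and Dnajb11 (-1.86). Of 22 groups of family medians, 1 met it, with the HSP90 median of the liver of mouse 1 at -0.37. Mouse 1 had the widest liver arrays, and its part in these values was not tested.

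Averaged over the orientations, Dnajb2 was above 0 in every brain and below 0 in every liver. Its difference of -0.48 between the tissues was tested and did not pass (limma, adjusted p = 0.677).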

How the results depend on the processing

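No member passed limma's test under any alternative in which genes were tested, in either tissue or for liver minus brain. Names read without the offset gave family medians only, and no member was tested there. Over all genes, 3 passed in brain, with 1 when arrays were centred, 0 when also scaled, 0 with the floor ratios kept, 1 with mouse values from 1 array and 0 on Cy5 arrays alone; leaving out 1 mouse at a time gave 0 to 3 (1 without mouse 1, 0 without mouse 3, 1 without mouse 4). For liver minus brain, 2 passed, with 1 when the floor ratios were kept, 1 with values required in all 4 mice, and 1 to 3 with a mouse left out (1 without mouse 1, 3 or 4). The counts of members below 0 without each mouse were chosen after seeing the data. The fit with the mouse as a replicate block, which pairs the tissues, gave 2 genes and 0 members and changed no call on a member.

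Of the family medians under the alternatives, 362 moved by less than the spread over mice and 27 moved further. Another 7, whose mice all lay on one side of 0 in the main run, changed sign. A sign change of any other median was counted by its distance alone. On Cy3 arrays alone, for example, the brain median of all members went from 0.016 to -0.10 and that of Cct from 0.076 to -0.082. On Cy5 arrays alone the liver medians were -0.016 for all members, -0.031 for Hspa, 0.064 for Hspb, -0.0029 for Hspd with Hspe, -0.13 for Hsp90, -0.23 for Dnajb and 0.021 for Fkbp, and on Cy3 arrays alone -0.35 for Hspb, -0.58 for Hspd with Hspe, -0.32 for Hsp90, 0.077 for Dnajb, -0.24 for Fkbp, -0.13 for Bag and -0.17 for Cct. In brain, Cy5 arrays gave 0.30 for Hspd with Hspe, 0.15 for Dnajc and 0.25 for Bag, and Cy3 arrays -0.16, -0.13 and -0.13. Liver minus brain was 0.23 for Hspb and -0.29 for Dnajb on Cy5 arrays, and -0.27 for Hspb, -0.17 for Dnaja and 0.078 for Dnajb on Cy3 arrays. With names read without the offset, medians were -0.017 for all members, 0.021 for Hspa, 0.16 for Hspb, -0.040 for Hspd with Hspe and -0.027 for Dnajb in liver, 0.10 for Hspb in brain, and 0.0095 for Hspa, -0.088 for Hspd with Hspe and -0.0094 for Dnajb in liver minus brain. Single genes were not followed on arrays of 1 dye, on scaled arrays or without the offset, and the values by orientation above hold further sign changes. Under the alternatives in which they were followed, single genes changed sign in 3 cases. With mouse values from 1 array these were Dnajb8 in brain (-0.0024) and Hspa1a in liver (0.0098), and with the floor ratios kept, Cct6b in brain (-0.65). The cause was not tested.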

Other observations

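Among members read by 2 or more probes, the probe means had opposite signs for 14 of 34 genes in brain and 15 of 34 in liver. Hspd1, Tcp1, Dnajc19, Fkbp4, Hspa9 and Dnajb6 were among those whose probes all lay below 0 in liver. For Hspd1, Hspa9 and Dnajb6 the sign of the liver mean nevertheless differed between the dye orientations. Dnajc27 was not: its liver mean came from 1 probe at 0.54, beside another at -0.01.

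Hspa1a and Hspa12b both had a single brain far above the rest, that of mouse 2 at 1.54 and 1.61, and the same mouse was at 0.94 for Dnajb11 and 1.02 for Dnajc5b.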
